A study of Mus musculus with 6 samples.

Results

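Mast cell proteases and markers were examined in uterine horns as 10 genes: Cpa3, Cma1, Mcpt1, Mcpt4, Tpsb2, Tpsab1, Kit, Ms4a2, Hdc and Fcer1a. Every probe set annotated to exactly 1 of these symbols was taken, which gave 14 of the 45037 probe sets and 10 of the 18193 genes on the array. Of these genes 4 had 2 probe sets and 6 had 1. The SF1 group carried Pgrcre/+ together with SF1LsL/+, a transgene for the nuclear receptor SF1 (Nr5a1) that Cre switches on in cells expressing the progesterone receptor. Controls carried SF1LsL/+ without Cre, so both groups held the transgene and Cre plus the altered Pgr locus were present in the SF1 group alone. All mice were C57BL6J, each group had 3 arrays, and every array held RNA pooled from 2 uteri with the cervix removed. Tissue was collected 2 weeks after a surgery of unstated kind, and no age is stated in the labels. The arrays are called SF1 and control after their labels.

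Mast cells are resident immune cells of connective tissue and mucosa that develop from marrow progenitors under the control of the receptor Kit. Their granules store histamine, made by Hdc, with proteases of the carboxypeptidase, chymase and tryptase families, and antigen bound to IgE on the high-affinity receptor triggers their release. In the uterus mast cells lie in the endometrial stroma and between the muscle layers.

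Values are linear intensities per probe set, and levels of different probe sets were not compared. Differences are SF1 minus control on the log2(intensity + 16) scale, which understates the change of dim genes, and a gene was called when its limma p-value, adjusted over all probe sets by the Benjamini-Hochberg method, was under 0.05. A gene with several probe sets is represented by its brightest. Array medians lay between 149.9 and 159.6 in SF1 and between 159.0 and 162.2 in control. RNA integrity was read from the beta-actin controls, whose 3′ probe set over 5′ probe set gave 2.19 ± 0.123 in SF1 and 2.51 ± 0.107 in control (SD, n = 3 each; exact two-sided permutation p = 0.1, the smallest that 3 arrays against 3 allow). The same ratio for Gapdh was 1.54 ± 0.104 in SF1 and 1.62 ± 0.0877 in control, with overlapping groups (exact two-sided permutation p = 0.3). The part of these ratios in the differences of the members was not tested. Nr5a1, the gene of the transgene, read 151.26, 151.2 and 151.45 in SF1, against 138.76, 171.51 and 144.8 in control on its brighter probe set, with overlapping groups (log2 difference 0.00, limma adjusted p = 0.992), and its other probe set differed by 0.08 (adjusted p = 0.535). Whether these probes match the transcript of the transgene is not stated in the labels, so they do not check which arrays carry it. Markers of the labelled tissue were strong in all arrays, at summed intensities of 17203 to 18622 for 6 epithelial genes and 30145 to 32578 for 6 smooth muscle genes in SF1, against 15557 to 16357 and 27891 to 30456 in control. In whole tissue, more cells of a type and more RNA per cell cannot be told apart.

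Among the 10 genes 5 rose in SF1 uteri, 0 fell and 5 were not called. Over all genes 8.45% were called higher and 8.11% lower. The members were chosen with earlier results of these data known, so setting them beside all genes is not an independent test. The risen genes were Cpa3, Cma1, Mcpt4, Kit and Fcer1a. Counted by probe set, 5 of 14 rose and 0 fell, where 5.88% of all probe sets rose and 8.08% fell. Every SF1 array lay above every control array for 6 of the 10 genes, the 5 risen ones and Ms4a2, and for 6 of the 14 probe sets, against 16.3% of all genes and 12.1% of all probe sets. The median log2 difference of the members was 0.40, beside -0.05 for all genes. When the fit was limited to probe sets brighter than the median, only 4 members remained in it and 3 of them rose (Cpa3, Cma1 and Kit), where 13.1% of the genes in that fit were called higher.

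**Figure D1:**
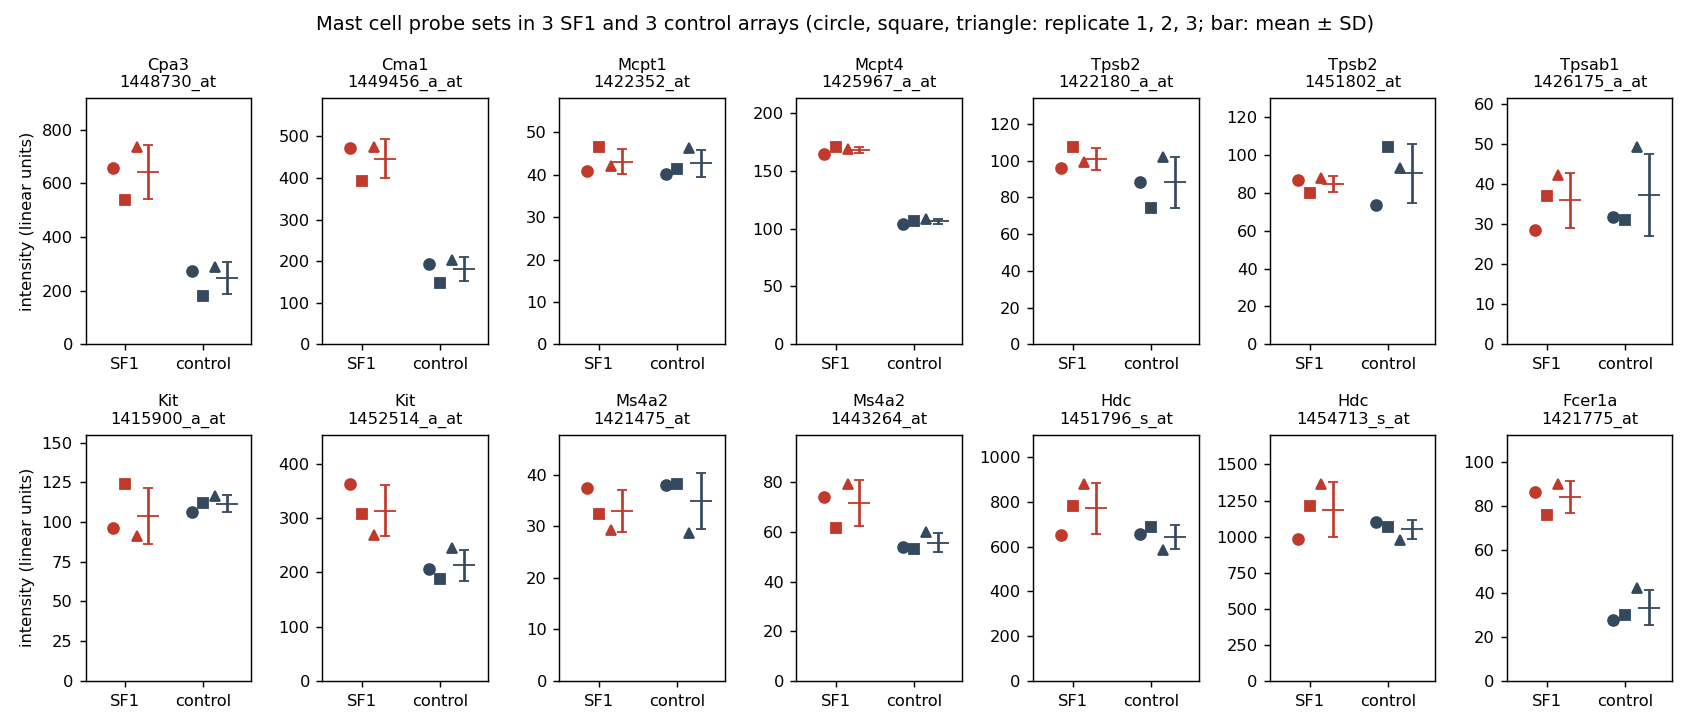
Intensity of each of the 14 mast cell probe sets (vertical axis, linear units, starting at 0) in the 3 SF1 arrays (red, left) and the 3 control arrays (dark, right), with mean ± SD beside the points. Cpa3, Cma1, Mcpt4 and Fcer1a show groups that do not overlap, while Mcpt1, Tpsab1 and both Tpsb2 probe sets show groups that do.

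Cpa3 encodes carboxypeptidase A3, a zinc-dependent exopeptidase stored in mast cell granules (chr3:20215616-20242209, GRCm38.p6). Its intensity was 655.92, 536.41 and 734.57 in SF1 replicates 1 to 3, against 273.13, 179.34 and 288.13 in control replicates 1 to 3. The lowest SF1 array read 536.41 and the highest control array 288.13, so the groups were well apart. Mean levels were 642 ± 99.8 in SF1 and 247 ± 59.0 in control (SD, n = 3 each), a ratio of 2.60. The log2 difference was 1.34 ± 0.18 (SE; 95% interval 0.93 to 1.75; limma adjusted p = 0.00159).

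The chymases are serine proteases encoded close together on chromosome 14. Cma1 (chr14:55941451-55944675), known as mast cell protease 5 in the mouse, is a marker of connective tissue mast cells. It read 472.95, 392.91 and 474.24 in SF1, against 192.74, 148.09 and 201.95 in control. As with Cpa3, replicate 2 was the lowest array in each group. Means were 447 ± 46.6 in SF1 and 181 ± 28.8 in control, with a log2 difference of 1.24 ± 0.13 (SE; limma adjusted p = 0.000368).

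Mcpt4 (chr14:56059744-56062310), the chymase regarded in the mouse as the main functional counterpart of human chymase, gave 164.9, 170.45 and 168.96 in SF1, against 103.92, 106.84 and 108.13 in control. The 3 arrays of each group lay within a few units of each other, and the groups were far apart relative to that spread. Its means were 168 ± 2.87 in SF1 and 106 ± 2.16 in control, a log2 difference of 0.59 ± 0.07 (SE; limma adjusted p = 0.000904). Mcpt1 (chr14:56017964-56020391), the chymase of mucosal mast cells, read 40.8, 46.53 and 42.07 in SF1, against 40.28, 41.38 and 46.39 in control. These groups overlapped throughout, and the log2 difference was 0.01 (95% interval -0.18 to 0.20; limma adjusted p = 0.941). The mean intensity of Mcpt1 lay at percentile 13 of all probe sets, and no detection call accompanies the values used here. Whether probes of one chymase also bind transcripts of its close relatives was not tested.

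The promoters of Mcpt4, which rose, and of its near-copy Mcpt1, which was not called (a difference between the genes that was not tested), are printed here with those of Cpa3 and Cma1, which also rose. Each runs from 250 bases before to 50 bases after a transcription start of its gene in RefSeq's GRCm38.p6, read 5′ to 3′ on the gene's strand. Capitals mark matches to GATAA or its reverse complement TTATC, the core of sites bound by GATA factors.
Mcpt4: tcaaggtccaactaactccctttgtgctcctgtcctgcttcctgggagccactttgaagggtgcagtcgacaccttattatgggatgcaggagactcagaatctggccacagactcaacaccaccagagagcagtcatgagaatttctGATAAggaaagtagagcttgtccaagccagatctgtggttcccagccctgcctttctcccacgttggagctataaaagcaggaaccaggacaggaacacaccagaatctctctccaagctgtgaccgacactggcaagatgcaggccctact
Mcpt1: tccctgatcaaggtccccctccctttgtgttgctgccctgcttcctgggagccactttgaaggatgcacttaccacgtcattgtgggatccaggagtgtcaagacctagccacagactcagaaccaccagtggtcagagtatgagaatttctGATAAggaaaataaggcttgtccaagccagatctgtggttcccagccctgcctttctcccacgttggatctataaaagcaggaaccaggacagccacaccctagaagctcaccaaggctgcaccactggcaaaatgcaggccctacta
Cpa3: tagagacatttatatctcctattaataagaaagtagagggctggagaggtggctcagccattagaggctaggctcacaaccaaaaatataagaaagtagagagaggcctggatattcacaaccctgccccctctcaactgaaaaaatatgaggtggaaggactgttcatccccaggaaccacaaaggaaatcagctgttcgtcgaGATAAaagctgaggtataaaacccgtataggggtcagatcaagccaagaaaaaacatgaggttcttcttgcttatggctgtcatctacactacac
Cma1: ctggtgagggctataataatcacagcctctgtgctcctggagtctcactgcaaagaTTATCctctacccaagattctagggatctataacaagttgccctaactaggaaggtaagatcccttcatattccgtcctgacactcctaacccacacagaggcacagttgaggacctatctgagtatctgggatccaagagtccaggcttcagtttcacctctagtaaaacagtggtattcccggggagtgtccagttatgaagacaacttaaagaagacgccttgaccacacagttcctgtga

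These windows lie at chr14:56062261-56062560 (minus strand) for Mcpt4, chr14:56017714-56018013 (plus strand) for Mcpt1, chr3:20242132-20242431 (minus strand) for Cpa3 and chr14:55944626-55944925 (minus strand) for Cma1. In a global alignment 249 of 291 aligned bases (85.6%) were identical between the Mcpt4 and Mcpt1 windows, against 168 of 248 (67.7%) between Mcpt4 and Cma1. Both near-copies hold GATAA in the same surrounding letters, beginning 102 bases upstream of the start in Mcpt4 and 98 bases upstream in Mcpt1. In Cpa3 the match begins 45 bases upstream, and in Cma1 it lies on the other strand, beginning 194 bases upstream. The start used for the Cpa3 window lies inside the gene span given above, not at its outer end. Promoter windows were found for 8 of the 10 members, and 6 of these held GATAA on either strand, beside 25.8% of the 27025 genes with a window. The SF1 half-site AAGGTCA (or TGACCTT) was in 0 of the 8, beside 4.66% of all, and the E-box CATGTG (or CACATG) was in 1, that of Fcer1a, beside 14.1%. None of these matches overlapped another. A match describes letters and is not a measured binding site.

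The tryptases, trypsin-like serine proteases of mast cell granules, lie together on chromosome 17. Tpsb2 (chr17:25366308-25368096), the tryptase of connective tissue mast cells also called mast cell protease 6, gave 96.17, 107.43 and 99.51 in SF1 on its brighter probe set, against 88.45, 74.46 and 102.3 in control. The control array of replicate 3 lay above 2 SF1 arrays, and the log2 difference was 0.17 (95% interval -0.07 to 0.42; limma adjusted p = 0.317). The second Tpsb2 probe set read 86.67, 80.1 and 87.78 in SF1, against 73.49, 104.19 and 93.27 in control, a log2 difference of -0.07 (adjusted p of 0.727 from limma). Tpsab1 (chr17:25343245-25345562) read 28.6, 37.01 and 42.13 in SF1, against 31.8, 30.97 and 49.14 in control, also with overlapping groups. Its log2 difference was -0.03 (95% interval -0.37 to 0.31; limma adjusted p = 0.910), and its mean lay at percentile 10.0 of all probe sets. C57BL/6 mice are known to carry a splice-site mutation in this gene and to lack the protein.

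**Figure D2:**
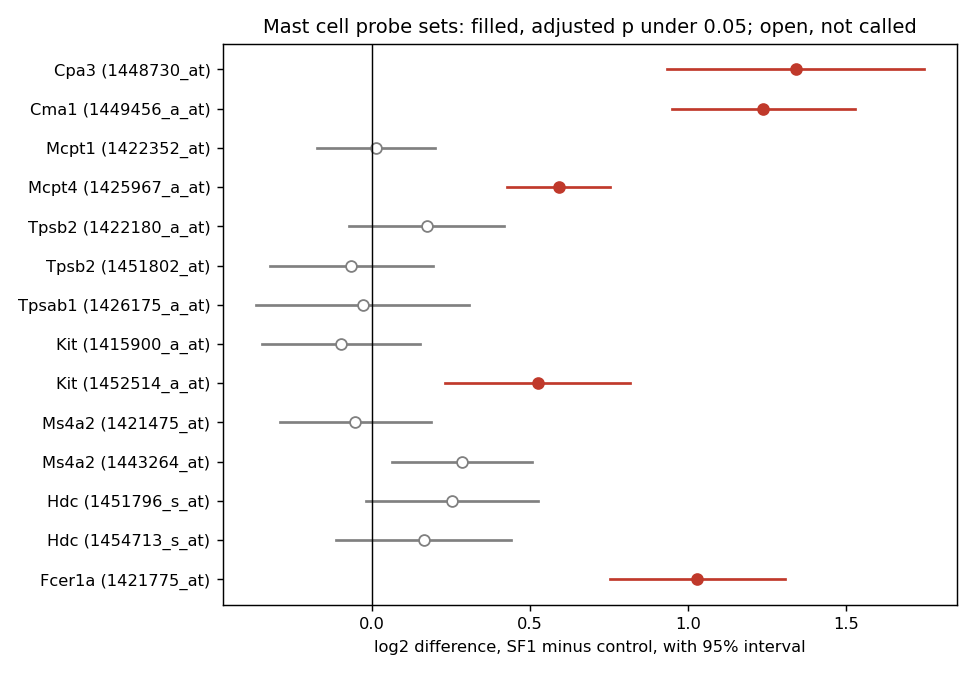
Log2 difference (SF1 minus control, horizontal axis) with its 95% interval for each of the 14 probe sets, filled where the adjusted p was under 0.05. The 5 filled points run from 0.52 for a Kit probe set to 1.34 for Cpa3, and the open points lie between -0.10 and 0.28.

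Of the receptors, Fcer1a encodes the IgE-binding alpha chain of the high-affinity IgE receptor (chr1:173221269-173227232). It read 86.5, 75.84 and 90.15 in SF1, against 27.66, 30.02 and 42.55 in control. All SF1 arrays exceeded all control arrays, at means of 84.2 ± 7.44 in SF1 and 33.4 ± 8.0 in control (SD, n = 3 each). The log2 difference was 1.03 ± 0.12 (SE; limma adjusted p = 0.000798), although the probe set was dim, at percentile 20.4, and the difference was 0.61 with a pseudocount of 64 and 1.33 with a pseudocount of 1.

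Ms4a2 encodes the signal-amplifying beta chain of the same receptor (chr19:11615517-11623790). The brighter of its probe sets gave 74.04, 61.51 and 79.37 in SF1, against 54.02, 53.16 and 60 in control. The lowest SF1 array (61.51) was just above the highest control array (60), and the log2 difference of 0.28 (95% interval 0.06 to 0.51) was not called (limma adjusted p = 0.0889). Without SF1 replicate 2 it was 0.37 and was called (adjusted p = 0.0466), and over the alternatives run its adjusted p lay between 0.0466 and 0.280. The other probe set read 37.43, 32.38 and 29.35 in SF1, against 37.95, 38.24 and 28.72 in control, with a log2 difference of -0.05 (limma adjusted p = 0.766).

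Kit, the receptor tyrosine kinase for stem cell factor that mast cells need to survive (chr5:75574987-75656722), gave different results on its probe sets. The brighter one read 363.45, 308.17 and 269.54 in SF1, against 206.52, 187.8 and 244.94 in control. All SF1 arrays were the higher ones, with the closest pair being SF1 replicate 3 and control replicate 3. Its log2 difference was 0.52 ± 0.13 (SE; limma adjusted p = 0.0297), a call that was lost when SF1 replicate 1 (adjusted p = 0.0964), SF1 replicate 2 (0.0777), control replicate 1 (0.0875) or control replicate 2 (0.0742) was left out. The other Kit probe set read 96.31, 123.98 and 91.26 in SF1, against 106.12, 112.13 and 116.56 in control, with overlapping groups and a log2 difference of -0.10 (limma adjusted p = 0.573). The mean of both probe sets gave 0.21 (adjusted p = 0.168).

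Hdc, the histidine decarboxylase that makes histamine (chr2:126593659-126624025), is also known to be expressed in mouse uterine epithelium. Its brighter probe set gave 984.42, 1213.33 and 1365.41 in SF1, against 1102.98, 1069.29 and 979.64 in control. SF1 replicate 1 lay within the control range, and the log2 difference of 0.16 (95% interval -0.11 to 0.44) was not called (limma adjusted p = 0.398). On its second probe set Hdc had 653.1, 781.96 and 880.26 in SF1, against 655.53, 687.37 and 583.28 in control, a log2 difference of 0.25 (adjusted p = 0.194).

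Within the groups, Cpa3, Cma1 and Fcer1a shared an order among the SF1 arrays, lowest in replicate 2 and highest in replicate 3. Cpa3 and Cma1 were also lowest in control replicate 2, where Fcer1a was lowest in control replicate 1. Of the risen members Mcpt4 varied least, with its highest SF1 value in replicate 2, and Kit was highest in SF1 replicate 1 and lowest in SF1 replicate 3. To find genes that varied most like Cpa3, each gene was centred on its mean over the 6 arrays and the root mean square difference from Cpa3 was taken over those arrays, so that the measure holds both the group difference and the differences between pools. Among all 18192 other genes Cma1 ranked 3, at 0.11 log2 units, and Fcer1a ranked 64, at 0.25, whereas Mcpt4 ranked 636, Kit 761 and Tpsab1 7114. Among genes with a mean intensity of at least 100, the 5 named non-members closest to Cpa3 were Bcas1 (0.08), Selenbp1 (0.10), Gzmb (0.12), Tubb4b (0.13) and Tsnaxip1 (0.14). Bcas1 and Selenbp1 lay closer to Cpa3 than Cma1 did, so the likeness was not particular to the members. Bcas1, the closest, read 323.72, 272.85 and 368.53 in SF1, against 131.47, 93.48 and 124.21 in control. Gzmb, the cytotoxic granule protease granzyme B, read 391.54, 321.49 and 381.15 in SF1, against 135.56, 110.91 and 146.09 in control.

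**Figure D3:**
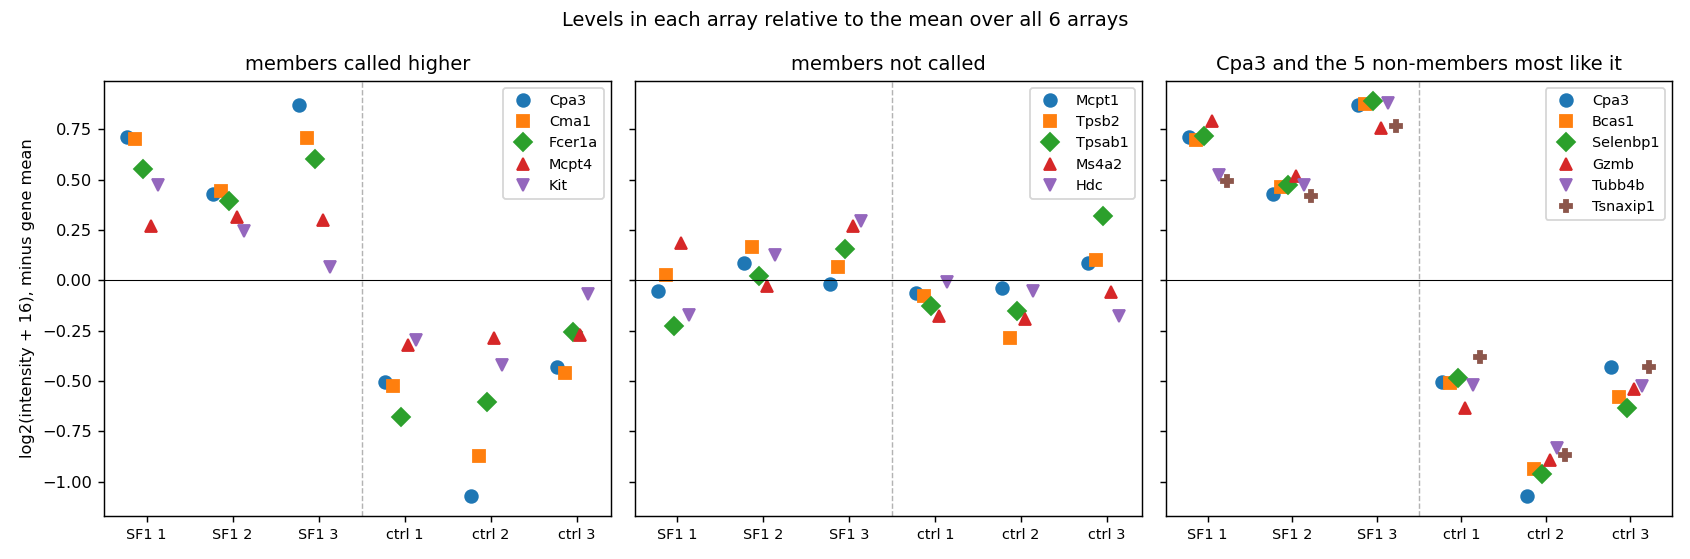
Log2(intensity + 16) of each gene minus its mean over the 6 arrays (vertical axis), by array, SF1 left of the dashed line and control right of it, for the risen members, the members not called, and Cpa3 with the 5 non-members most like it. In the first panel every SF1 point lies above every control point of the same gene, and in the third panel the 5 non-members and Cpa3 all have their lowest SF1 point and their lowest control point in replicate 2. These 5 were picked for their likeness to Cpa3 over the same arrays, which favours such a shared pattern.

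Other genes known from mast cells or their regulation were read from lists of related genes. Each list count, here and for the cell markers below, stands beside 8.45% of all genes called higher and 8.11% called lower. The single calls among growth factors, surface receptors, homing genes and cytokines are near these shares. Of 10 measured granule genes 4 rose and 0 fell, with a median log2 difference of 0.19. Rab27b, a small GTPase of granule release, averaged 366 ± 101 in SF1 and 121 ± 13.7 in control (log2 difference 1.45, limma adjusted p = 0.000786), and 2 of its 3 other probe sets also rose. The mean over its 4 probe sets gave 0.76. Ctsc, the protease that activates chymases and granzymes, rose by 0.76 (adjusted p = 0.0179), a call lost when SF1 replicate 1, SF1 replicate 2 or control replicate 1 was left out (highest adjusted p = 0.0720). The other Ctsc probe sets were not called (0.50 and 0.28), and the mean over all of its probe sets gave 0.51. Slc18a2, the transporter that loads histamine into granules, rose by 0.52 from a dim level, at 41.6 ± 6.96 in SF1 and 24.2 ± 4.27 in control (adjusted p = 0.0192), a call lost without SF1 replicate 3 (0.0597). With a pseudocount of 64 the difference of Slc18a2 was 0.26. Mcpt2, the other mucosal chymase, differed by 0.15 (adjusted p = 0.493), and Srgn, the core protein of granule proteoglycan, by 0.07 (adjusted p = 0.865).

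In the list for signalling from the IgE receptor 4 of 16 genes rose and 2 fell, with a median log2 difference of 0.15. With 1 array left out that median lay between 0.07 (without SF1 replicate 2 or control replicate 2) and 0.26 (without control replicate 3), and the fallen genes numbered 1 without SF1 replicate 2. Fcer1g, the gamma chain that Fcer1a shares with other Fc receptors on macrophages and natural killer cells, read 992.81, 1704.3 and 903.67 in SF1, against 647.52, 442.6 and 660.3 in control. Its log2 difference of 0.99 (limma adjusted p = 0.0285) was not called when SF1 replicate 1 or control replicate 1 or 2 was left out (highest adjusted p = 0.0641), nor with the replicate number as a block (0.0739) or with eBayes with trend and robust (0.0935). The adaptor genes Lcp2 (1.10, adjusted p = 0.00969) and Gab2 (0.61, adjusted p = 0.000928) rose on their brightest probe sets. The other Lcp2 probe set gave 0.02 and the mean of both 0.56, and the other Gab2 probe sets gave -0.05 and -0.54, with a mean over all 3 of 0.01 that was not called (adjusted p = 0.968). The kinase gene Fyn fell by 0.77 (adjusted p = 0.000338) and the phospholipase gene Plcg1 by 0.44 (adjusted p = 0.0160), a call lost for Plcg1 without SF1 replicate 2 (0.0559) or with the replicate number as a block (0.0562). Ptpn6 and Vav1 were not called on their brightest probe sets (0.15 and -0.14). Another probe set of each was called higher, at 0.90 for Ptpn6 (limma adjusted p = 0.00543) and 0.52 for Vav1 (0.0240).

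Of growth factors and their receptors 1 of 13 rose and 0 fell, with a median of -0.03 that lay between -0.08 (without control replicate 1) and 0.00 with 1 array left out. Kitl, the ligand of Kit known as stem cell factor, read 2766.98, 2100.86 and 2514.75 on its brightest probe set in SF1, against 2022, 1687.99 and 2048.55 in control. The groups did not overlap, but the log2 difference of 0.35 ± 0.12 (SE) was not called (limma adjusted p = 0.0930). On the other Kitl probe sets the groups overlapped, at 0.07, 0.15 and -0.00083, and none was called. Il33, an epithelial and stromal cytokine that stimulates mast cells, rose by 0.70 (adjusted p = 0.0477), and this call remained in 1 of the 6 fits with an array left out, the one without SF1 replicate 1. It was also lost with the replicate number as a block (0.0548), with eBayes with trend and robust (0.0643) and with a pseudocount of 1 (0.0715). Of 9 transcription factors 2 rose and 2 fell, with a median of 0.03 that lay between 0.00 (without SF1 replicate 2) and 0.14 (without control replicate 3). Gata2 and Mitf, which drive mast cell development but are also expressed in other uterine cells, fell by 0.47 (adjusted p = 0.00373) and 0.90 (adjusted p = 0.00130). Their means were 2903 ± 104 and 1457 ± 224 in SF1, against 4016 ± 59.0 and 2701 ± 34.0 in control. Ikzf1 (0.80) and Runx1 (0.51), transcription factors of blood cells, rose.

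Among genes of lipid mediators and histamine handling 0 of 11 rose and 2 fell, with a median of 0.13. With 1 array left out the median lay between -0.05 (without control replicate 2) and 0.16 (without SF1 replicate 1), at 0.03 without SF1 replicate 2, where 1 gene was called higher. Pla2g4a, the phospholipase that frees arachidonic acid, fell by 0.98 (limma adjusted p = 0.000195), and Hpgds, the prostaglandin D synthase of mast cells and macrophages, fell by 0.45 (adjusted p = 0.0166), a call lost without control replicate 3 (0.0503). Mrgprb1, a receptor gene of connective tissue mast cells, was the 1 of 10 surface receptors that rose, at 48.13, 43.4 and 51.39 in SF1, against 33.4, 25.74 and 35.04 in control (log2 difference 0.43, adjusted p = 0.0237). That call was lost when SF1 replicate 1 or 3 or control replicate 1 or 2 was left out (highest adjusted p = 0.0800), and with a pseudocount of 64 the difference was 0.23. The median of the surface receptors was 0.30, and 0.125 without SF1 replicate 2, where 2 of them were called higher. Of 13 homing genes Vcam1, the adhesion molecule for mast cell progenitors, rose on its brightest probe set (1.63, adjusted p = 2.76e-05) and 0 fell. Its other probe sets gave 0.56 and -0.09, and the mean of all 3 was 0.70. The median of the homing genes was 0.18, and between 0.13 (without SF1 replicate 2) and 0.29 (without control replicate 3) with 1 array left out. In both of these fits 2 homing genes were called higher. The chemokine gene Cxcl1 and the chemokine receptor gene Ccr2 were not called on their brightest probe sets (0.39 and -0.18), but other probe sets were called higher, at 2.21 and 1.34 for Cxcl1 and 0.83 for Ccr2. Cxcl12 was not called on its brightest probe set either (-0.12), but another of its probe sets was called lower (-0.43, limma adjusted p = 0.0227). Of 10 secreted cytokine genes 0 rose and 1 fell, namely Vegfa, the vascular growth factor, by 0.82 (adjusted p = 0.000763). The other Vegfa probe set gave 0.01 and the mean of both -0.40. The median of the cytokine genes was 0.07, and between -0.08 (without SF1 replicate 2) and 0.11 (without SF1 replicate 3) with 1 array left out.

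Markers of other cells that could carry the same transcripts were read beside the members. General leukocyte genes rose in 6 of 8 cases and fell in 0, with a median log2 difference of 1.00, and their summed intensity lay between 7223 and 11821 in SF1, against 3547 and 5040 in control. Ptprc, the common leukocyte antigen CD45, had a log2 difference of 1.01 (limma adjusted p = 0.00819), beside 1.34 for Cpa3 and 1.24 for Cma1. Macrophage genes rose in 7 of 8 cases (2 without SF1 replicate 1 and 3 without SF1 replicate 2), with a sum of 8220 to 10320 in SF1, against 4077 to 6345 in control. T cell genes rose in 3 of 5 cases, with a sum of 1442 to 1660 in SF1, against 842 to 1012 in control. With 1 array left out 2 of them were called higher, except without control replicate 2, where 3 were. Natural killer cell genes, Gzmb among them, rose in 3 of 6 cases, with a sum of 1435 to 1621 in SF1, against 977 to 1043 in control. Of these 2 were called higher without SF1 replicate 1 or 2 or without control replicate 1 or 3. Deposited intensities start at 1, so no marker in these lists could read 0, and a value above 0 does not show that a marker was expressed. The part of these cells in the differences of Fcer1g, Ctsc, Rab27b and the members was not tested.

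Basophils carry the same IgE receptor as mast cells. Their markers rose in 0 of 4 cases and fell in 0, with a summed intensity of 249 to 270 in SF1, against 266 to 288 in control. Mcpt8, the basophil protease, averaged 54.8 ± 7.94 in SF1 and 60.8 ± 5.57 in control (log2 difference -0.12, limma adjusted p = 0.457). Eosinophil genes rose in 1 of 5 cases, Siglecf (0.39, adjusted p = 0.0388), a call lost when either SF1 replicate 1 or 2 or control replicate 1 or 3 was left out (adjusted p up to 0.115) or with a pseudocount of 64 (0.0699), and their sum was 210 to 240 in SF1 and 194 to 255 in control. Neutrophil genes were called in 0 of 7 cases, and their sum was 22206 in SF1 replicate 2, against 731 and 1003 in the other SF1 arrays and 561 to 1112 in control. In that array Cpa3, Cma1 and Fcer1a had their lowest SF1 values, and without it their log2 differences were 1.46, 1.32 and 1.09.

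Kit is also expressed by melanocytes, interstitial cells of Cajal and blood progenitors. Of 6 melanocyte genes 1 rose, Dct (1.21, limma adjusted p = 0.000728), while Tyr, Tyrp1, Pmel, Mlana and Sox10 differed by -0.22 to -0.09 and were not called. The summed melanocyte intensity was 832 to 865 in SF1 and 781 to 857 in control. Of 3 genes of interstitial cells of Cajal 0 rose and 0 fell (1 fell without control replicate 2), with Ano1 at -0.23 (adjusted p = 0.135) and a sum of 2485 to 2863 in SF1, against 3099 to 3286 in control. Of 4 progenitor genes 2 fell and 0 rose, Mecom (-1.17) and Cd34 (-1.05), which endothelium also expresses. The other Mecom probe sets gave 0.13 and -0.68, and the mean of all 3 was -0.57. Hlf was not called on its brightest probe set (-0.41), but its other was called lower (-0.56, limma adjusted p = 0.00949). The part of these cells in the Kit values was not tested.

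Endocrine cells can store histamine too. Of 6 genes of such cells 3 rose, 2 without SF1 replicate 3, namely the granule protein genes Chga (4.49) and Chgb (4.02) and Slc18a2, with a summed intensity of 1340 to 2789 in SF1, against 418 to 502 in control. Slc18a1 was not called on its brightest probe set (0.10), but another was called lower (-0.57, limma adjusted p = 0.0487). Uterine epithelial genes rose in 2 of 6 cases, Cdh1 (0.71) and Epcam (0.38), and fell in 1, Krt19 (-0.36). The Epcam call was lost without SF1 replicate 1 (adjusted p = 0.0541) and for the mean of its probe sets (0.16, adjusted p = 0.145), of which the other gave -0.05. The Krt19 call was made in 2 of the 6 fits with an array left out and was lost with the replicate number as a block (0.0956), median centring (0.0552) or a pseudocount of 1 (0.0533). The smooth muscle genes were called in 0 of 6 cases. The part of these cells in the values of Hdc and Slc18a2 was not tested.

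**Figure D4:**
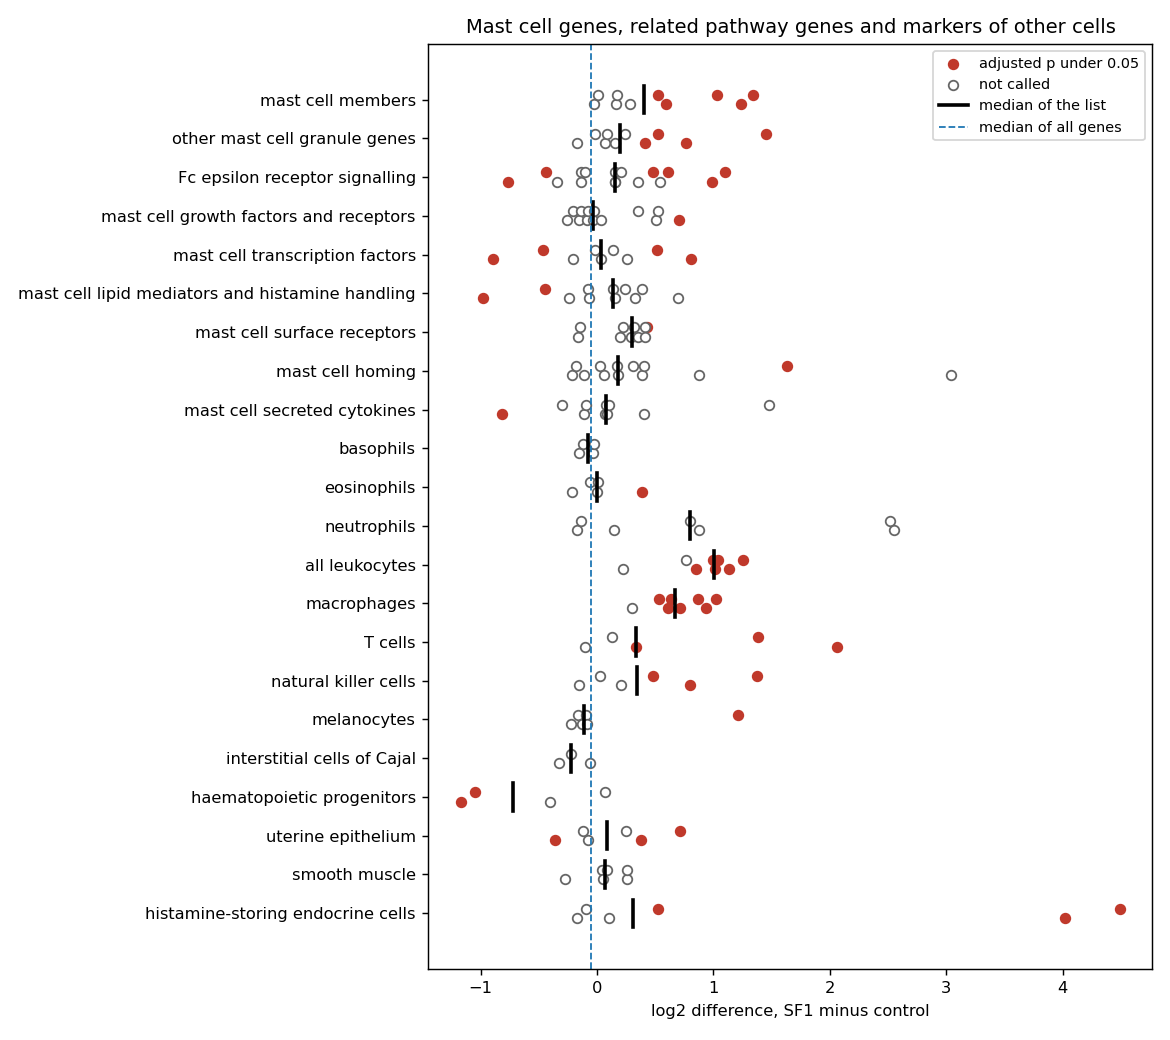
Log2 difference (SF1 minus control, horizontal axis) of each measured gene, by list, filled where the adjusted p was under 0.05, with the median of each list as a black bar and the median of all genes (-0.05) as a dashed line. The mast cell row spans -0.03 to 1.34, the 4 basophil points lie below 0, and the general leukocyte row has its median at 1.00.

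The plot of the members under other settings shows how firmly each difference held. Cpa3 was called in all 6 fits that left out 1 array, at log2 differences of 1.14 to 1.46 (highest adjusted p = 0.00978). So were Cma1, at 1.11 to 1.32 (0.00293), Mcpt4, at 0.58 to 0.60 (0.00701), and Fcer1a, at 0.95 to 1.16 (0.00562). Kit was called in 2 of these fits, Ms4a2 in 1, and Mcpt1, Tpsb2, Tpsab1 and Hdc in 0.

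**Figure D5:**
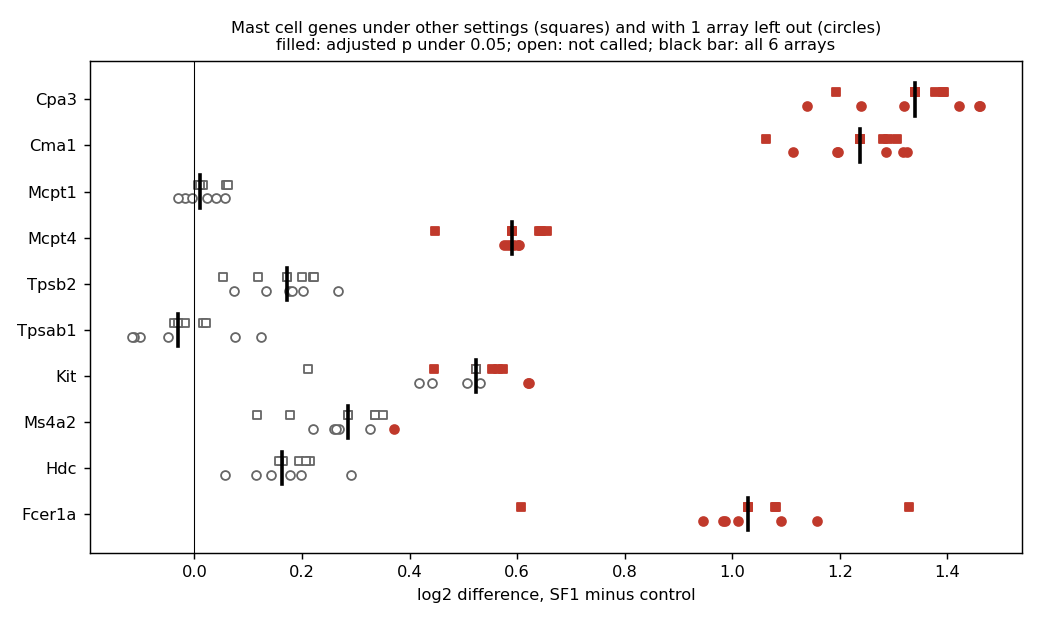
Log2 difference (SF1 minus control, horizontal axis) of each mast cell gene with all 6 arrays (black bar), with 1 array left out (circles) and under the other settings (squares), filled where the adjusted p was under 0.05. Cpa3, Cma1, Mcpt4 and Fcer1a are filled throughout, Kit is mixed, and Mcpt1 and Tpsab1 lie on both sides of 0.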

How the data were processed

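Total RNA was measured on the 1-colour Affymetrix GeneChip Mouse Genome 430 2.0 Array, per the labels' protocols. As deposited, each probe set has a linear intensity, from 1 to 25325. Which software subtracted background, normalized the arrays and summarized the probes is unstated in the labels, and it could bear on dim probe sets. Of 45101 probe sets 64 Affymetrix controls were left out. GEO's platform annotation named 34945 of the rest with 1 symbol, 932 with several and 9160 with none, and the gene IDs of all 10 members gave the same symbols in RefSeq's GRCm38.p6 gene table. In R 4.3.3, limma 3.58.1 (lmFit, then eBayes) was run on log2(value + 16) for all 6 arrays without covariates, and the fit was tested on simulated data. There it called 24 of 67 probe sets changed 1.5-fold, 59 of 67 changed 2-fold and 66 of 66 changed 4-fold. No others of the 45037 simulated probe sets were changed, whereas 14% of probe sets were called in the data. The adjusted cut was therefore stricter in the simulation, and these shares do not carry over to the members. A member that was not called can still differ by a small amount. Promoters came from RefSeq's table and were aligned with Biopython 1.88.

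The members and gene lists were chosen with earlier results of these data known. The text names all members, up to 3 risen and 3 fallen genes of each list, values of marker genes, and the 5 genes most like Cpa3, passing over clone names. Nothing in the labels pairs same-numbered arrays. Alternatives were quantile normalization, median centring, brighter probe sets only, a replicate block, eBayes with trend and robust, pseudocounts of 1 and 64, averaging the probe sets of a gene, stricter calls, and each array left out. Precision is limited by the number of arrays. P-values measure the spread between these RNA pools, and the labels do not say which pools were handled together.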

Additional observations from a re-analysis of the deposited data

How the results depend on the processing

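The count of risen member genes was 5 with all arrays and 4 to 5 with 1 array left out. Of all genes 8.45% were called higher with all arrays, and 5.71% to 7.17% with 1 left out. The member count was 3 with brighter probe sets only, for genes and for probe sets, because Mcpt4 and Fcer1a lay below that limit and were not in the fit. It was 4 with the replicate block, averaging the probe sets of a gene, an adjusted p under 0.01 or a fold of at least 1.5. Under these 4 rules, in that order, 6.33%, 8.46%, 4.73% and 4.36% of all genes were called higher. No member was called lower under any of these alternatives. Deviations of same-numbered arrays from their group means correlated at -0.06, -0.10 and -0.18. With 3 arrays per group, whose deviations sum to 0, these values cannot decide whether same-numbered pools were handled together. With the replicate block Kit lost its call (limma adjusted p = 0.0676) and no other member's call changed. The sign of Mcpt1, at 0.01 with all arrays, turned when SF1 replicate 2 (-0.030), control replicate 1 (-0.02) or control replicate 2 (-0.0042) was left out, within a range of -0.030 to 0.056. That of Tpsab1, at -0.03, turned with quantile normalization (0.016), median centring (0.021), and when control replicate 3 (0.12) or SF1 replicate 1 (0.08) was left out, within a range of -0.116 to 0.12, and neither gene was called in any of these. The median of all probe sets differed by -0.07 between the groups as deposited, -0.03 after quantile normalization and -0.02 after median centring. No background level was used, so what signal over background allows for dim probe sets was not measured.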
